A study of Saccharomyces cerevisiae with 8 samples.

Results

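Mitochondria of Saccharomyces cerevisiae carry their own DNA, and the factors that transcribe and translate it are made from nuclear genes. The 35 such genes described here were chosen by symbol in 4 roles. They are 13 mitochondrial tRNA synthetases, 6 general translation factors, 12 activators or stabilisers of mitochondrial mRNAs, and 4 genes for transcribing, packaging and copying mitochondrial DNA. Each activator or stabiliser is listed here under 1 mRNA on which it acts, which need not be its only role. All 35 had a probe set on the arrays, 1 each, and all passed the filter on dim signals, among 5412 genes tested. Total RNA came from 8 independent cultures of the laboratory strain DBY7286, each on its own Affymetrix yeast array. The low-iron group was 4 cultures given ferrous ammonium sulfate at 10 µM, and the high-iron group was 4 cultures given it at 300 µM. Both groups grew in a minimal medium of defined iron content, with 1 mM Ferrozine, which chelates ferrous iron, MES buffer (25 mM, pH 6.1), copper at 1 µM and supplements for the strain's auxotrophies, which the labels do not name. Cells were harvested in mid-log growth at A600 0.5, after some 18 h at 30 °C, and the comparison asks which genes respond when iron is scarce.

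Mitochondrial DNA of yeast encodes a small set of proteins, mainly the core subunits of cytochrome c oxidase, cytochrome b of the bc1 complex and subunits of the ATP synthase. A dedicated RNA polymerase transcribes it, dedicated synthetases load amino acids onto its tRNAs, and most of its mRNAs need a protein that recognises that 1 message before ribosomes can translate it. Several of the products are haem or iron-dependent respiratory proteins, whereas the factors described here are, as a class, not known as iron proteins.

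As a check of the iron labels, FET3 and FTR1, the ferroxidase and permease of iron uptake, rose 2.51-fold and 3.16-fold in low iron (limma adjusted p = 4.38e-07 and 2.64e-07). Signals are MAS5 values on a linear scale, and each array had a mean of 500.2 after trimming 2% of probe sets at each end, so a change in total mRNA per cell would not be seen. Principal component 1 (75.8% of the variance) divided low from high iron, and component 2 (12.1%) set low-iron arrays 1 and 2 apart from low-iron arrays 3 and 4. Over 17 control probe sets for ribosomal RNA the median was 3082 ± 547 in low iron and 3998 ± 244 in high iron (SD, n = 4 each; p = 0.0286 by a two-sided exact permutation test, the lowest possible with 4 arrays against 4), with 2682 and 2567 on low-iron arrays 1 and 2, the smallest of the 8. The part of these array differences in the results was not tested. The number of arrays limits the precision of each value.

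The genes for mitochondrial gene expression were mostly lower in low iron, by modest amounts. Of the 35, 20 fell and 2 rose (called by limma at an adjusted p under 0.05), with a median log2 change of -0.27 on the log2(signal + 1) scale, low minus high iron. Of all 5412 genes tested, 39.4% were called in either direction, 22.7% lower and 16.8% higher, with a median change of -0.018. The members called lower are thus 57.1% of the group. In 17 members every low-iron value lay below every high-iron value, which held for 21.8% of all genes, and in 2 every low-iron value lay above, which held for 16.8%. The sizes were not unusual: the median absolute log2 change was 0.40 among the 22 members called and 0.39 among all genes called. Only CBP6 fell at least 2-fold, as did 2.75% of all genes. Of the 13 members not called, all but DIA4 had a 95% interval of the log2 change that stayed within 0.5 of 0.

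**Figure D1:**
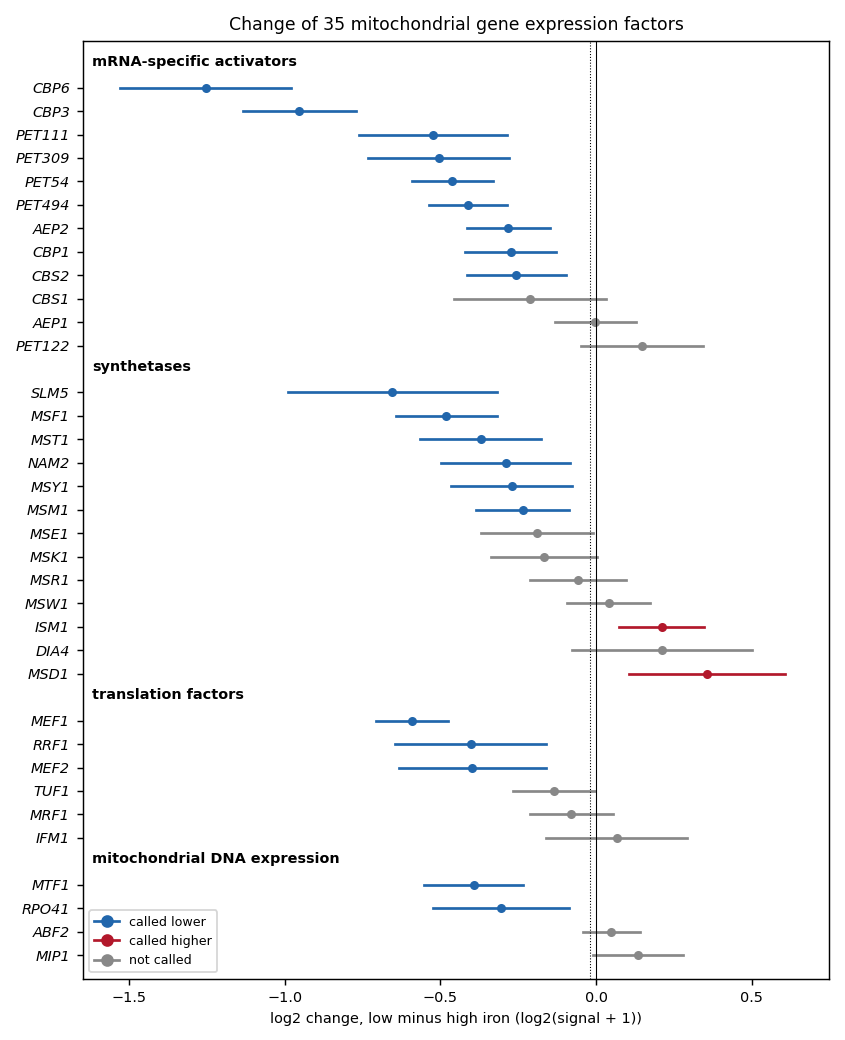
Log2 change (low minus high iron, on the log2(signal + 1) scale) of each of the 35 genes with its 95% interval, in 4 role groups; blue genes were called lower, red genes higher and grey genes neither, and the dotted line is the median of all genes tested. CBP6 and CBP3 lie farthest to the left, and the 2 genes called higher, ISM1 and MSD1, are both synthetases.

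The activators held the 2 largest falls of the 35. Of these 12 genes 9 fell and none rose, with a median log2 change of -0.35, against 22.7% of all genes called lower. CBP6 and CBP3, whose proteins bind each other and the mitochondrial ribosome to promote synthesis and early assembly of cytochrome b, stood at the head. CBP6 (YBR120C) read 239, 241, 300.3 and 190.3 in low iron, against 529, 595, 545 and 629 in high iron. Every low-iron array lay far below every high-iron array. CBP6 fell 2.39-fold, a log2 change of -1.25 ± 0.12 (SE, n = 4 arrays per condition; limma adjusted p = 3.34e-05). CBP3 (YPL215W) read 523, 395, 455 and 439 in low iron, against 892, 888, 870.2 and 844 in high iron. It fell 1.94-fold, again without overlap, a log2 change of -0.95 ± 0.082 (limma adjusted p = 1.35e-05).

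The other 3 genes that act on the COB message for cytochrome b moved less. CBP1, which protects the COB mRNA from decay, averaged 355 ± 9.61 in low iron and 430.0 ± 28.8 in high iron (SD, n = 4 each) and fell by 0.27 on the log2 scale (limma adjusted p = 0.00792). CBS2, a translational activator of COB, averaged 294 ± 22.7 in low iron and 351 ± 13.4 in high iron and fell by 0.26 (limma adjusted p = 0.0170). The call of CBS2 ended without high-iron array 4 (log2 change -0.24, adjusted p = 0.0541) and without low-iron arrays 1 and 2 (-0.18, adjusted p = 0.0676). Its partner in COB activation, CBS1, read 153, 135, 189 and 167 in low iron, against 208, 184, 183 and 169 in high iron. These values overlap, and CBS1 was not called, with a log2 change of -0.21 (95% interval -0.46 to 0.031; limma adjusted p = 0.148). It was called without low-iron array 3 (-0.29, adjusted p = 0.0443). Without low-iron arrays 1 and 2 its change was -0.060 (adjusted p = 0.668).

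Activators of the 3 messages for the core of cytochrome c oxidase fell, with 1 exception. PET309 (YLR067C), which stabilises and activates the COX1 mRNA, read 126, 143, 167 and 129 in low iron, against 222, 199.6, 184 and 196 in high iron. All low-iron values lay below all high-iron values, and PET309 fell 1.42-fold (log2 change -0.51 ± 0.10, SE; limma adjusted p = 0.00296). PET111 (YMR257C), the activator of COX2, read 193, 164, 166 and 151 in low iron, against 201, 258, 264 and 249.8 in high iron. The groups came closest between low-iron array 1 and high-iron array 1 without overlapping, and PET111 fell 1.44-fold (log2 change -0.52 ± 0.11; limma adjusted p = 0.00319).

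COX3 has 3 activators that work together, PET54, PET122 and PET494. PET54 (YGR222W) read 646, 616, 586 and 606 in low iron, against 875, 820.0, 884 and 804 in high iron. PET494 (YNR045W) read 299.8, 285, 287 and 294 in low iron, against 398, 385, 386 and 382 in high iron. In both, the conditions were well separated, with log2 changes of -0.46 ± 0.059 and -0.41 ± 0.056 (limma adjusted p = 0.000187 and 0.000287). PET122 (YER153C) read 312, 384, 321 and 350.2 in low iron, against 293, 279, 334 and 328 in high iron, with overlapping ranges. Its log2 change was 0.15 (95% interval -0.050 to 0.34; limma adjusted p = 0.213), an interval that lies above those of PET54 and PET494. The difference between the COX3 activators was not itself tested.

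Of the 2 genes named for the OLI1 message, which encodes a membrane subunit of the ATP synthase, AEP2 fell and AEP1 was not called, and the difference between them was not tested. AEP2 (YMR282C) read 321, 294, 301 and 297 in low iron, against 385, 360.1, 367 and 363 in high iron, with no overlap. It fell 1.22-fold (log2 change -0.28 ± 0.060; limma adjusted p = 0.00424). AEP1 (YMR064W) read 399, 432, 409.9 and 405 in low iron, against 425, 401, 398 and 424 in high iron, nearly the same mean in both conditions, and had a log2 change of -0.0024 (95% interval -0.13 to 0.13; limma adjusted p = 0.978).

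**Figure D2:**
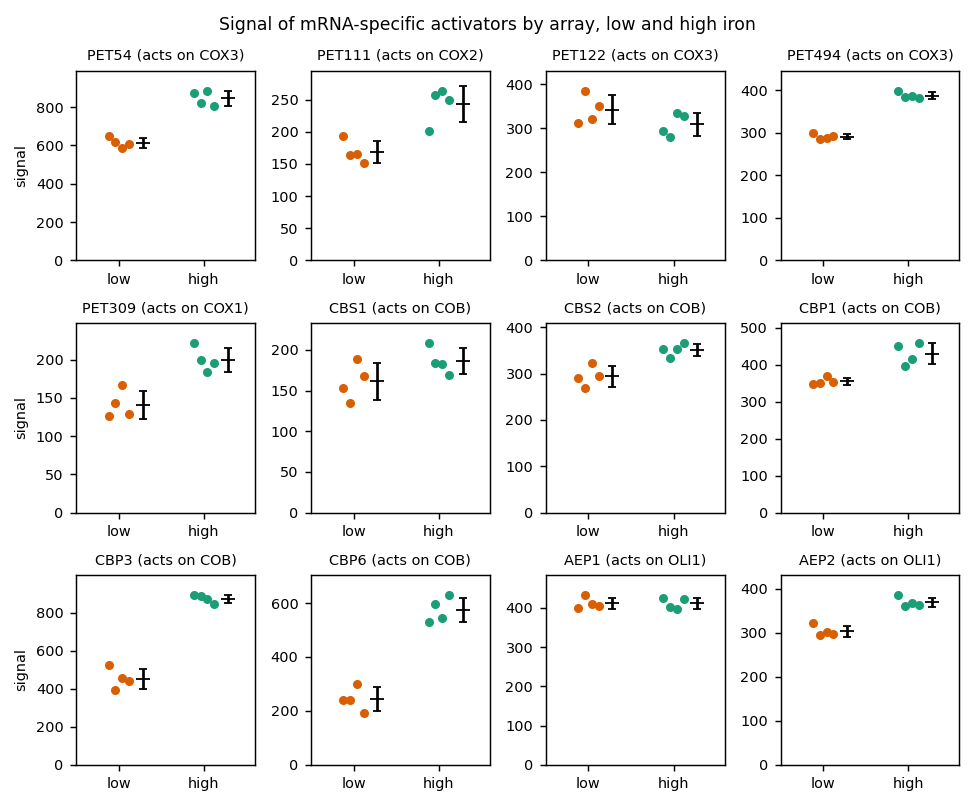
Signal (linear MAS5 units, axes from 0) of the 12 mRNA-specific activators on each array, low iron left of high iron, with mean and SD (n = 4 each) as black bars; each panel names the mitochondrial gene served. CBP6 and CBP3 show the widest gaps, and AEP1, PET122 and CBS1 overlap between conditions.

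Among the 6 general translation factors, MEF1, MEF2 and RRF1 fell and none rose, against 22.7% of all genes called lower and 16.8% higher, with a median log2 change of -0.27. MEF1 (YLR069C), the elongation factor G that moves the ribosome along the message, read 462, 475, 481 and 479 in low iron, against 690.2, 716, 726 and 729.6 in high iron. Replicates were tight and the ranges far apart, and MEF1 fell 1.51-fold (log2 change -0.59 ± 0.052, SE; limma adjusted p = 1.56e-05). MEF2 (YJL102W), a relative of elongation factor G whose human counterpart acts in ribosome recycling, read 150.4, 145, 122 and 119 in low iron, against 153, 177, 183 and 193 in high iron. Its lowest high-iron value lay only just above its highest low-iron value, and it fell 1.32-fold (log2 change -0.40; limma adjusted p = 0.0137). RRF1 (YHR038W), the ribosome recycling factor, read 332, 291, 346 and 272 in low iron, against 419, 453, 437 and 337 in high iron. High-iron array 4 lay within the low-iron range, and RRF1 fell 1.32-fold (log2 change -0.40; limma adjusted p = 0.0147).

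The other 3 translation factors differed by small amounts that were not called. TUF1 (YOR187W), the elongation factor Tu that brings charged tRNAs to the ribosome, averaged 1659 ± 102 in low iron and 1821 ± 86.9 in high iron (SD, n = 4 each; log2 change -0.14, 95% interval -0.27 to -0.0044; limma adjusted p = 0.0926). TUF1 was called lower without low-iron array 1 (-0.17, adjusted p = 0.0446), without low-iron arrays 1 and 2 (-0.20, adjusted p = 0.0323) and with array weights (-0.17, adjusted p = 0.0435). MRF1 (YGL143C), the peptide release factor, read 266, 267, 267 and 256 in low iron, against 277, 271, 293 and 275 in high iron. These ranges do not overlap, yet the gap is small and the gene was not called (log2 change -0.079; limma adjusted p = 0.324). IFM1 (YOL023W), initiation factor 2, read 139, 121, 112 and 105 in low iron, against 108, 119, 121 and 106 in high iron, with a log2 change of 0.066 (95% interval -0.16 to 0.29; limma adjusted p = 0.634).

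**Figure D3:**
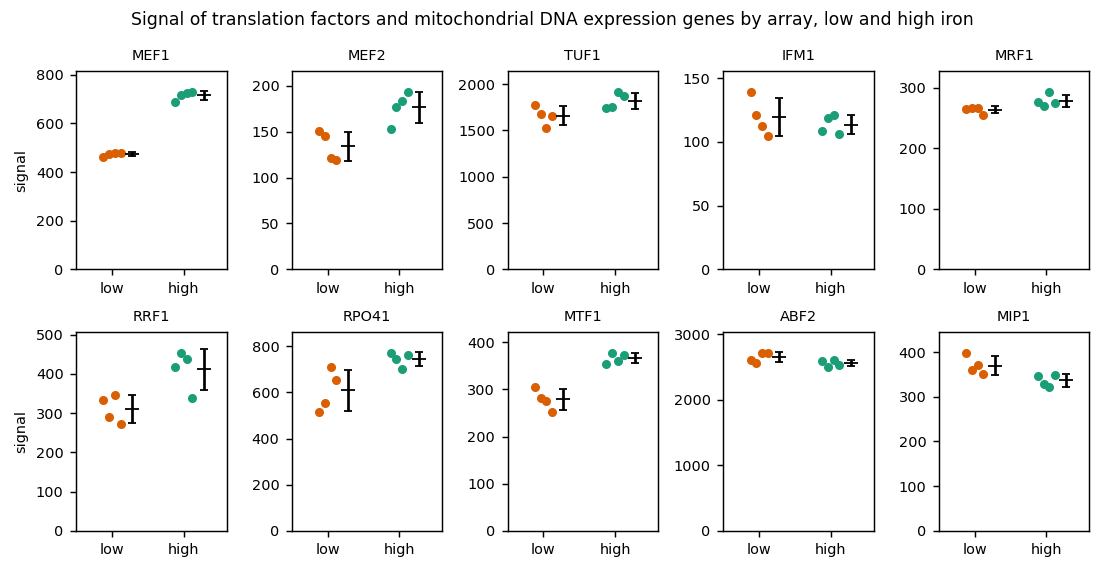
Signal (linear MAS5 units, axes from 0) of the 6 translation factors and of RPO41, MTF1, ABF2 and MIP1 on each array, low iron left of high iron, with mean and SD (n = 4 each) as black bars. MEF1 and MTF1 are separated by condition, as are MEF2, MRF1 and MIP1 by narrow margins, with MIP1 higher in low iron. RPO41 has its lowest values on low-iron arrays 1 and 2.

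The 13 mitochondrial tRNA synthetases, each of which joins 1 amino acid to its tRNA, included genes called in both directions. Of these 6 fell, 2 rose and 5 were not called, against 22.7% of all genes called lower and 16.8% higher, with a median log2 change of -0.19. With 1 array left out, the number of synthetases called lower was 3 to 6, with the lowest count without high-iron array 3 or 4. SLM5 (YCR024C), for asparagine, read 174, 109, 132 and 113 in low iron, against 203, 219, 230.2 and 170.2 in high iron. Low-iron array 1 reached above high-iron array 4, and SLM5 fell 1.57-fold (log2 change -0.65 ± 0.15, SE; limma adjusted p = 0.00643). MSF1 (YPR047W), for phenylalanine, read 233, 247, 203 and 223 in low iron, against 311, 321, 312 and 319 in high iron, with no overlap. It fell 1.40-fold (log2 change -0.48 ± 0.073; limma adjusted p = 0.000555). MST1 (YKL194C), for threonine, read 211, 221, 201 and 169.7 in low iron, against 270.3, 257, 256 and 251 in high iron, again without overlap, and fell 1.29-fold (log2 change -0.37; limma adjusted p = 0.00714).

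The other 3 synthetases that fell did so by less, and their calls were less firm. NAM2, for leucine, whose protein is also needed to splice mitochondrial introns, averaged 197 ± 21.6 in low iron and 240.2 ± 15.3 in high iron (SD, n = 4 each; log2 change -0.29; limma adjusted p = 0.0304). Its call ended without low-iron array 4 or high-iron array 2, 3 or 4 and with a block for the numbers that open the sample descriptions, which set low-iron arrays 2 and 4 and high-iron array 4 against the others (adjusted p up to 0.0853; log2 changes -0.21, -0.27, -0.29, -0.26 and -0.29). MSY1, for tyrosine, averaged 273 ± 30.4 in low iron and 328 ± 19.7 in high iron (log2 change -0.27; limma adjusted p = 0.0324). The call of MSY1 ended in 7 of 20 alternatives, without any 1 of the arrays except low-iron array 1 and high-iron array 2, and with the block (adjusted p up to 0.0875), at log2 changes of -0.23 to -0.28. MSM1, for methionine, averaged 239.6 ± 15.6 in low iron and 282 ± 6.10 in high iron with no overlap (log2 change -0.24; limma adjusted p = 0.0192). The adjusted p of MSM1 was 0.0570 without high-iron array 3 (log2 change -0.23) and 0.0533 without high-iron array 4 (-0.23).

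The 2 synthetases that rose are ISM1 and MSD1. ISM1 (YPL040C), for isoleucine, read 213, 219, 223 and 210.3 in low iron, against 186, 189.9, 187 and 184 in high iron. Its replicates were tight and did not overlap, and it rose 1.16-fold (log2 change 0.21 ± 0.061; limma adjusted p = 0.0199). Without high-iron array 3 or 4 the adjusted p of ISM1 was 0.0530 and 0.0560, at log2 changes of 0.21 and 0.20. MSD1 (YPL104W), for aspartate, read 263, 349.7, 275 and 271 in low iron, against 264, 224, 215 and 199 in high iron. Low-iron array 2 was well above the other arrays, and high-iron array 1 lay just within the low-iron range. MSD1 rose 1.28-fold (log2 change 0.36 ± 0.11; limma adjusted p = 0.0291). That call ended without low-iron array 2 (0.26, adjusted p = 0.0693), without high-iron array 2, 3 or 4 (0.36, 0.34 and 0.30), without low-iron arrays 1 and 2 (0.28) and with the description number block (0.35), at adjusted p of up to 0.0862.

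The 5 synthetases not called were MSE1 for glutamate, MSK1 for lysine, MSR1 for arginine, MSW1 for tryptophan and DIA4 for serine. Their log2 changes were -0.19 (95% interval -0.37 to -0.0094), -0.17 (-0.34 to 0.0028), -0.058 (-0.21 to 0.10), 0.040 (-0.093 to 0.17) and 0.21 (-0.078 to 0.50), with limma adjusted p of 0.0877, 0.107, 0.538, 0.623 and 0.224. MSE1 was called without low-iron array 2 (-0.25, adjusted p = 0.0325) and MSK1 without high-iron array 2 (-0.22, adjusted p = 0.0490). DIA4, the dimmest of the 35 genes, read 124, 102, 87.5 and 79.9 in low iron, against 85.7, 88.8, 81.6 and 78.5 in high iron. Only low-iron arrays 1 and 2 lay above the high-iron range, and without them its change was 0.0014 (adjusted p = 0.993), while quantile normalization gave 0.41 (adjusted p = 0.0151).

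For each of these 13 amino acids yeast also has a gene for a cytosolic synthetase, so genes serving the same amino acid could be compared. For phenylalanine the partner was a gene for 1 subunit, FRS2, and no other subunit gene was compared. Where the proteins are located was not measured. The cytosolic genes did not fall: 5 of 13 were called higher (FRS2 by 0.23, CDC60 by 0.13, KRS1 by 0.12, DPS1 by 0.12 and ILS1 by 0.10 on the log2 scale), against 16.8% of all genes, and none lower. Under quantile normalization, 2 were called higher and 5 of 13 had changes below 0. Only FRS2, a subunit of the phenylalanyl enzyme, kept its call in all 20 alternatives, while CDC60, KRS1, DPS1 and ILS1 all lost theirs without low-iron array 1 or 2 or both, without high-iron array 1 or 3, and with no intensity trend. Without low-iron arrays 1 and 2 their changes were 0.11, 0.088, 0.10 and 0.11 (limma adjusted p up to 0.221). The 8 partners not called were MES1, GUS1, YDR341C, THS1, WRS1, TYS1, DED81 and SES1, at 0.018 to 0.094.

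For each pair the difference of the log2 signals was taken on each array, in which any scaling factor of the array cancels, and low was set against high iron. Relative to its cytosolic partner the mitochondrial gene was lower in low iron in 8 of 13 pairs. No share over pairs of other genes was computed, so how unusual that count is was not tested. In each of the 8 the differences did not overlap between conditions. Among all single genes, 21.8% were lower and 16.8% higher in low iron without overlap. Each of these had an adjusted p of 0.0464 (two-sided exact permutation test over the 8 arrays). All 8 differences shared the smallest p that 4 against 4 arrays can give (0.0286), and the adjusted p rests on that tie of 8. These differences were -0.71 for asparagine, -0.71 for phenylalanine, -0.44 for threonine, -0.42 for leucine, -0.36 for tyrosine, -0.33 for methionine, -0.29 for lysine and -0.24 for glutamate on the log2 scale. The pairs for arginine (-0.076, adjusted p = 0.371), tryptophan (-0.0097, 0.829), isoleucine (0.11, 0.0825), serine (0.19, 0.371) and aspartate (0.24, 0.223) were not called in the exact permutation test. No pair was called without any 1 array (smallest adjusted p of 0.0531 to 0.0929, by array) or under quantile normalization (smallest adjusted p = 0.0531), and the 8 differences stayed below 0 in all of these. Under quantile normalization the exact permutation test gave -0.10 for glutamate (adjusted p = 0.371), -0.20 for lysine (0.111) and -0.57 for asparagine (0.0825), while the other 5 differences were -0.24 to -0.59. Without low-iron arrays 1 and 2, where 2 against 4 arrays cannot reach the threshold, the 8 differences were -0.22 to -0.77, and that for serine was -0.043. Those for arginine and tryptophan were then -0.18 and -0.094, each at the smallest possible exact permutation p (0.0667). Lysine, 1 of the 8, was above that p (-0.25, exact permutation p = 0.133). Of the cytosolic genes 6 had mean signals over 4000, so their changes can be compressed. That level is near the top of the range, since the array maxima were 6597 to 7706. Every pair set a dim mitochondrial gene against a much brighter partner. Among the mitochondrial synthetases the brightest, MSK1, averaged 654 in low and 735 in high iron, and the dimmest, DIA4, 98.2 and 83.6. The dimmest cytosolic partner, WRS1, averaged 2552 in low and 2464 in high iron. The part of this gap in brightness in the pair differences was not tested.

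**Figure D4:**
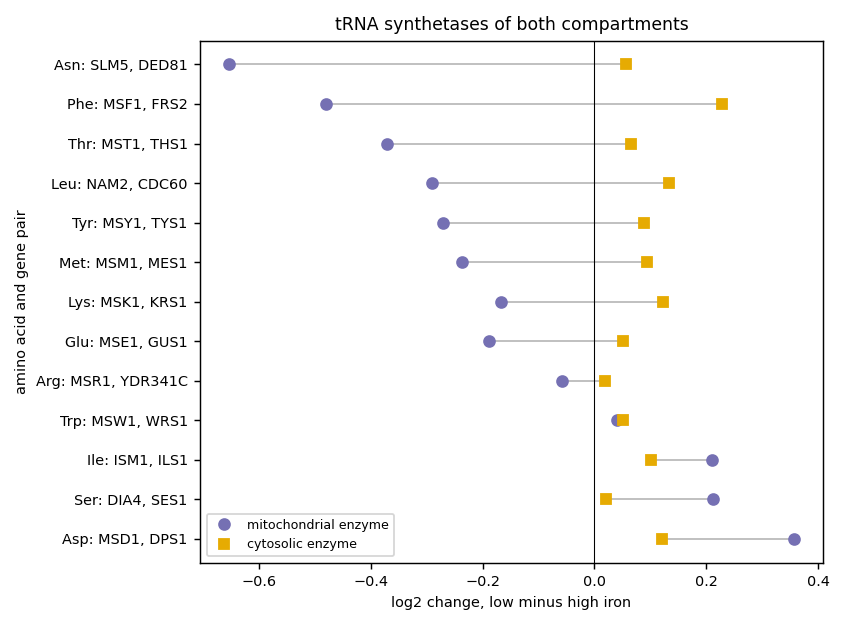
Log2 change (low minus high iron) of each mitochondrial tRNA synthetase (circles) and of the cytosolic enzyme for the same amino acid (squares), ordered by the difference between them. The 8 pairs called lie at the top, from asparagine to glutamate, with the circle left of the square.

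Of the 4 genes for expression and copying of mitochondrial DNA, the 2 of transcription fell. Over all genes 22.7% were called lower and 39.4% in either direction. MTF1 (YMR228W), the specificity factor that places the RNA polymerase on mitochondrial promoters, read 306, 283, 276 and 252 in low iron, against 354, 377, 360.2 and 373 in high iron. The ranges were apart, and MTF1 fell 1.31-fold (log2 change -0.39 ± 0.071, SE; limma adjusted p = 0.00169). RPO41 (YFL036W), the polymerase itself, read 513, 555, 712 and 654 in low iron, against 770.1, 746, 703 and 764 in high iron. It fell 1.23-fold (log2 change -0.30 ± 0.10; limma adjusted p = 0.0321), but its lowest values were those of low-iron arrays 1 and 2, and low-iron array 3 lay within the high-iron range. Without both arrays its change was -0.13 (adjusted p = 0.154). In all, the RPO41 call ended in 9 of 20 alternatives, also without low-iron array 1 (-0.23) or 2 (-0.26) alone, without high-iron array 1 (-0.29), 2 (-0.30) or 4 (-0.29), under quantile normalization (-0.27) and median centring (-0.27), and with the description number block (-0.31).

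The genes that package and replicate the DNA were not called. ABF2 (YMR072W), the HMG-box protein that packages mitochondrial DNA and the brightest of the 35, averaged 2649 ± 74.1 in low iron and 2559 ± 49.8 in high iron (SD, n = 4 each; log2 change 0.050, 95% interval -0.041 to 0.14; limma adjusted p = 0.362). MIP1 (YOR330C), the mitochondrial DNA polymerase, read 398, 359, 372 and 351 in low iron, against 348, 329.6, 321 and 349 in high iron. Its low-iron values all lay above its high-iron values by a narrow margin, and its change of 0.13 was not called (95% interval -0.0096 to 0.28; limma adjusted p = 0.124), whereas quantile normalization and median centring gave 0.19 and 0.17 with calls (adjusted p = 0.0246 and 0.0457).

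Other genes of the same processes were named in lists by role, chosen with earlier results of these data known. Of 42 such genes 19 fell and 4 rose, against 22.7% and 16.8% of all genes, with a median log2 change of -0.19. Among 10 further factors for mitochondrial mRNAs and rRNA, 7 fell and none rose, of which SOV1 and MTF2 lost their calls in 10 and 5 of 20 alternatives. Without low-iron arrays 1 and 2 SOV1 was at -0.28 (limma adjusted p = 0.0723) and AEP3, not called on all arrays (-0.21), was called lower at -0.31 (adjusted p = 0.0146). They include MSS51, an activator of COX1, ATP25, which stabilises the OLI1 mRNA, and CCM1, which binds mitochondrial rRNA, with log2 changes of -0.60, -0.52 and -0.49 (limma adjusted p = 0.000602, 0.000351 and 0.000835). Of 5 intron splicing genes 3 fell, the RNA helicase gene MSS116, MRS1 and CBP2, with log2 changes of -0.45, -0.39 and -0.32 (limma adjusted p = 0.00303, 0.000524 and 0.0178). The call of CBP2 ended without high-iron array 3 (adjusted p = 0.0517). MNE1, in the same list, rose by 0.39 (limma adjusted p = 0.0264), and was no longer called without low-iron array 2 or 3 or high-iron array 3 or 4 (adjusted p up to 0.0782).

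Of 5 further translation and ribosome assembly factors 3 fell. For this and the next lists the shares over all genes were 22.7% called lower and 16.8% higher. The 3 were the initiation factor 3 relative AIM23, the ribosome assembly GTPase MTG2 and the elongation factor 4 relative GUF1. Their log2 changes were -0.66, -0.43 and -0.22 (limma adjusted p = 0.00684, 0.000964 and 0.0297). GUF1 lost its call in 7 of 20 alternatives (limma adjusted p up to 0.131 over all 20). These were quantile normalization, median centring, and leaving out low-iron array 1 or high-iron array 1, 3 or 4. The last was leaving out low-iron arrays 1 and 2 together (-0.20, limma adjusted p = 0.0523). Among 5 genes of tRNA maturation, RPM2, a protein subunit of mitochondrial RNase P, fell by 0.72, and SLM3, which adds sulphur to mitochondrial tRNAs, rose by 0.66 (limma adjusted p = 0.000214 and 6.4e-05). The 3 subunit genes of the amidotransferase that completes glutaminyl-tRNA, PET112, HER2 and GTF1, were not called (-0.042, -0.12 and -0.10). Without low-iron arrays 1 and 2 HER2 was called lower (-0.18, limma adjusted p = 0.0471), as was MSS1 of tRNA modification (-0.23, adjusted p = 0.0307; -0.18 and not called on all arrays). Of 4 synthetases made for both compartments from a single gene, VAS1, for valine, rose by 0.12 (limma adjusted p = 0.0297). It was not called in 10 of 20 alternatives (limma adjusted p up to 0.0950 over all 20). These took in leaving out any 1 array other than low-iron array 3 or high-iron array 2, quantile normalization, no intensity trend and the description number block. Without low-iron arrays 1 and 2 together VAS1 was at 0.11 (limma adjusted p = 0.0939). ALA1, GRS1 and HTS1 were not called, and quantile normalization gave 2 of the 4 as lower and none as higher. Of the RNA decay genes DSS1 fell by 0.22 (limma adjusted p = 0.0485) and SUV3 was not called. DSS1 was not called in 10 of 20 alternatives (limma adjusted p up to 0.225 over all 20). These were leaving out any 1 array other than low-iron array 1, quantile normalization, median centring and the description number block.

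Genes that maintain mitochondrial DNA had the widest range. Of 8, CCE1, a cruciform-cutting endonuclease, fell 1.79-fold, while DIN7, a DNA damage-inducible nuclease of mitochondria, rose 2.08-fold (limma adjusted p = 4.72e-05 and 9.55e-06). DIN7 averaged 450.4 ± 18.0 in low iron and 217 ± 24.8 in high iron (SD, n = 4 each). The recombination genes MHR1 and MGM101 fell, with log2 changes of -0.30 and -0.30 (limma adjusted p = 0.00210 and 0.00608). RIM1, which binds single-stranded DNA, fell by 0.13 (limma adjusted p = 0.0321). It lost that call in 9 of 20 alternatives (limma adjusted p up to 0.148 over all 20). These took in leaving out low-iron array 2 or any 1 high-iron array, median centring, no intensity trend and the description number block. Without low-iron arrays 1 and 2 together RIM1 was at -0.12 (limma adjusted p = 0.0702). HMI1, PIF1 and MSH1 were not called. The platform table used here pairs no probe set with a gene encoded by mitochondrial DNA, so the messages these factors serve were not analysed here.

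Spread between replicates was larger in low iron for most of the 35 genes. The coefficient of variation was larger in low than in high iron in 29 of them, with a median of 8.25% in low iron and 4.09% in high iron, against 8.58% and 5.47% over all genes tested. Low-iron arrays 1 and 2 both read above low-iron arrays 3 and 4 in 12 of the 35 and below them in 6, against 33.7% and 22.7% of all genes. The array values of synthetases and activators are given as a description. The median deviation of the synthetases from their own means over the 8 arrays was 0.012 and 0.0069 on low-iron arrays 1 and 2 and -0.12 and -0.17 on low-iron arrays 3 and 4, whereas that of the activators was -0.16, -0.23, -0.12 and -0.18 on the same 4 arrays. On the high-iron arrays the synthetase median was 0.041 to 0.10 and the activator median 0.14 to 0.22. Without low-iron arrays 1 and 2 the count of members was 19 lower and 1 higher, with the calls of CBS2, RPO41 and MSD1 lost and that of TUF1 gained.

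**Figure D5:**
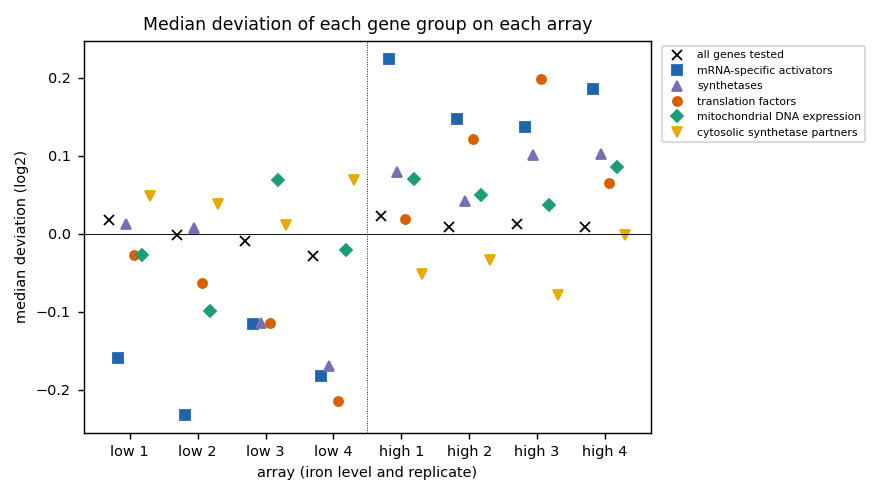
Median over each gene group of the deviation of log2(signal + 1) from the gene's own mean over the 8 arrays, by array, low iron left of high iron. Activators (squares) lie at -0.12 or below on every low-iron array and at 0.14 or above on every high-iron array, whereas the synthetases (upward triangles) lie near 0 on low-iron arrays 1 and 2.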

How the data were processed

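The authors deposited 1 signal intensity per probe set and array, made with MAS5 per the submitters' processing notes, which name no settings; the values are linear. Platform gene identifiers, looked up in RefSeq's table for assembly R64 (names only), paired probe sets with genes. For a gene with several probe sets the brightest was used. A gene was tested when its mean exceeded 5.48, the 95th percentile of Schizosaccharomyces pombe probe sets, which left 5412 of 5449 genes. Low iron was compared with high iron on log2(signal + 1) in limma 3.58.1 (R 4.3.3), using lmFit and then eBayes with trend on all 8 arrays, two-sided, with Benjamini-Hochberg adjustment over the 5412 genes and a threshold of 0.05. The 13 synthetase pairs were tested by exact permutation of the arrays, two-sided. Fold changes of dim genes are understated on this scale. The fit was tested on simulated data, in which the changes put in were larger than those of most members. The members and lists were chosen with earlier results of these data known. All 35 members are named; in other lists, genes were to be the 3 with the lowest adjusted p past the threshold, and MNE1, MGM101, RIM1, SOV1, MTF2 and all genes given as not called were named after their values were seen. The 20 alternatives left out single arrays or low-iron arrays 1 and 2, normalized by quantiles or median centring, took pseudocounts of 16 or 64, changed the filter or floor, dropped the trend, weighted arrays, averaged probe sets or blocked on description numbers. Leaving out arrays in the pair test was added, with its exact p, after the data were seen.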

Additional observations from a re-analysis of the deposited data

Results flagged for a closer look

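In 2 of 70 sets of 4 replicate signals (35 genes in 2 conditions), 1 array stood apart from the other 3 by Dixon's criterion, where chance flags about 1 in 20. MSD1 read 349.7 on low-iron array 2, against 263 to 275 on the other low-iron arrays. MRF1 read 256 on low-iron array 4, against 266 to 267 on the other low-iron arrays.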

How the results depend on the processing

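With 1 array left out the number of genes differing was 1717 to 2306 against 2133 in the main analysis, and that of members called lower was 15 to 20, against 20; over the other alternatives it was 17 (description number block) to 21 (array weights). Members called higher came to 0 to 2 with 1 array left out, against 2, with none without high-iron array 3 or 4, 1 without low-iron array 2 or high-iron array 2, 4 under quantile normalization, 1 with the description number block and 1 without low-iron arrays 1 and 2. Of the 22 members called, 15 kept their call in all 20 alternatives and 7 lost it in at least 1 (MSM1, MSD1, MSY1, ISM1, NAM2, CBS2 and RPO41), and 6 not called gained one in at least 1 (MSK1, MSE1, DIA4, TUF1, CBS1 and MIP1). Some of the 20 could hardly change a member. The changed filters, the floor and the averaging of probe sets left all member signals as they were. Each member has 1 probe set, and the lowest member value was 78.5, far above background (at most 8.06). Those alternatives could act on member calls only through the other genes in the fit. The synthetase pairs called numbered 0 of 13 under quantile normalization and 0 with any 1 array left out, against 8; in these settings fewer than 8 pairs reached the smallest p. Signs turned for members with changes near 0: AEP1 was 0.051 under quantile normalization, 0.035 under median centring, 0.0089 with array weights and -0.026 to 0.013 with 1 array left out; MSR1 was 0.0023 under quantile normalization; MSW1 was -0.013 and IFM1 -0.063 without low-iron arrays 1 and 2; and IFM1 was -0.010 to 0.13 with 1 array left out. The serine pair difference was -0.043 without low-iron arrays 1 and 2, against 0.19 on all arrays. The pair differences for arginine (0.053) and tryptophan (0.073) turned under quantile normalization, and that for tryptophan was -0.040 to 0.019 with 1 array left out. The cause of these changes was not tested. Quantile normalization gave 1181 genes higher and 1091 lower and median centring 1138 and 1072, against 907 and 1226, while the median of all genes moved by 0.019 and 0.037 on the log2 scale. No paired analysis was possible because the labels give no replicate numbers shared between the conditions.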
